A study of Mus musculus with 8 samples.

Results

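The genes described here are 33 astrocyte identity genes, a list that covers the channels, transporters, enzymes, receptors, secreted proteins and transcription regulators by which mature astrocytes are recognised. The list was drawn up with earlier results of these data known, and its members were found on the array by gene name alone. Of the 33 listed names, 32 had at least 1 probe on the array, and 31 were bright enough to be tested among 18336 genes. Mertk2 had no probe under that name. The name may stand for Mertk, which was measured and is counted among the partner genes below. Both probes of Nfia, a transcription factor that starts astrocyte formation, were well above background on 0 of 8 arrays, so this gene was not tested.

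The hippocampus was taken whole from C57BL/6 mice that were adult, at 3 to 6 months, and had passed through a series of behavioural tests. All mice carried 2 floxed Ctcf alleles (Ctcf loxP/loxP). Control mice (WT) were Camk2a-Cre negative, and conditional knockout mice (CKO) were Camk2a-Cre positive. Each sample pooled RNA from 3 mice, and each genotype had 3 pools. In both genotypes the mice of pool 1 were 2 females and 1 male of 19 to 23 weeks, those of pool 2 were 3 females of 18 to 19 weeks, and those of pool 3 were 3 males of 15 to 17 weeks. RNA of pool 1 was read on 2 arrays whose values were averaged, which leaves 3 values per genotype from 8 arrays. Because the CKO mice alone carried Cre, effects of Cre and of Ctcf loss cannot be told apart. The p-values measure the spread between these pools of mice.

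Astrocytes take up the glutamate and potassium that active neurons release, and supply neurons with glutamine and lactate. They are joined into a network by gap junctions, and their endfeet on blood vessels are rich in water channels. In injury they become reactive: they enlarge, gain intermediate filaments such as GFAP, and switch on a set of inducible genes. The Camk2a promoter drives Cre in excitatory forebrain neurons and not in astrocytes, and CTCF is the zinc-finger protein that, with cohesin, anchors chromatin loops. The comparison therefore asks whether the RNA of astrocyte identity genes differed in tissue where Cre was directed at Ctcf in excitatory neurons. CTCF protein, and the loss in each cell type, were not measured here. In whole tissue, fewer cells of a type and less RNA per cell cannot be told apart.

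Values are log2 of the scanner's processed signal minus the log2 of the array's 75th percentile, so that 0 is the brightness at that percentile, and a difference of 1 is a doubling. A level says how bright a probe was and does not rank one gene against another. The 75th percentile of the signal ran from 2112 to 5104 over the arrays, and 59.2% to 66.0% of spots exceeded background clearly, with 0 at saturation. The repeat arrays of pool 1 had the lowest signal in each genotype. Ctcf, which checks the labels, read 0.83, 1.12 and 1.04 in WT pools 1 to 3 and 0.18, 0.16 and 0.05 in CKO pools 1 to 3. Each CKO pool was thus lower than each WT pool, with a difference of -0.87 (SE 0.13). The limma test over all genes gave this an adjusted p of 0.143, and 0.0294 with the pool number as a block. The 43 member probes that passed the brightness filter were each well above background on all 8 arrays, so the defining markers of astrocytes were present in every pool. Of the neuronal markers 12 of 12 were measured as well.

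The differences of the astrocyte identity genes centred on 0, with members on both sides of it. None of the 31 tested members passed the threshold of an adjusted p of 0.05 in limma, against 0.0273% of all genes. With the pool number as a block 0 of 31 passed, against 0.562% of all genes. The mean was higher in CKO for 16 members and lower for 15. The median difference (CKO minus WT) over the members was 0.000062 on the log2 scale, beside -0.0031 over all genes tested. The median size of the difference without its sign was 0.098 for members and 0.125 for all genes. Only Hepacam, Slc14a1 and Cyp4f14, 3 of 31, differed by 0.25 or more in either direction, and 21.5% of all genes did. These 3 were also the dimmest tested members, with WT means of -2.11, -1.52 and -1.46, and Sox9 was next at -0.47. Whether low signal had a part in their differences was not tested. The smallest adjusted p of a member was 0.913, for Hepacam, and the next was 0.999.

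How large a difference the arrays could have missed is given by the 95% intervals. The interval's half-width ran from 0.28 to 0.63 with a median of 0.38, and the median over all genes was 0.43. For 24 of 31 members the whole interval lay within 1.5-fold either way, which held for 50.2% of all genes. The 7 others were Aqp4, Gjb6, Hepacam, Slc14a1, Aldoc, Cyp4f14 and Gpr37l1. The widest reach upward was 2.12-fold for Slc14a1, and the widest reach downward was 1.51-fold for Gjb6.

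**Figure D1:**
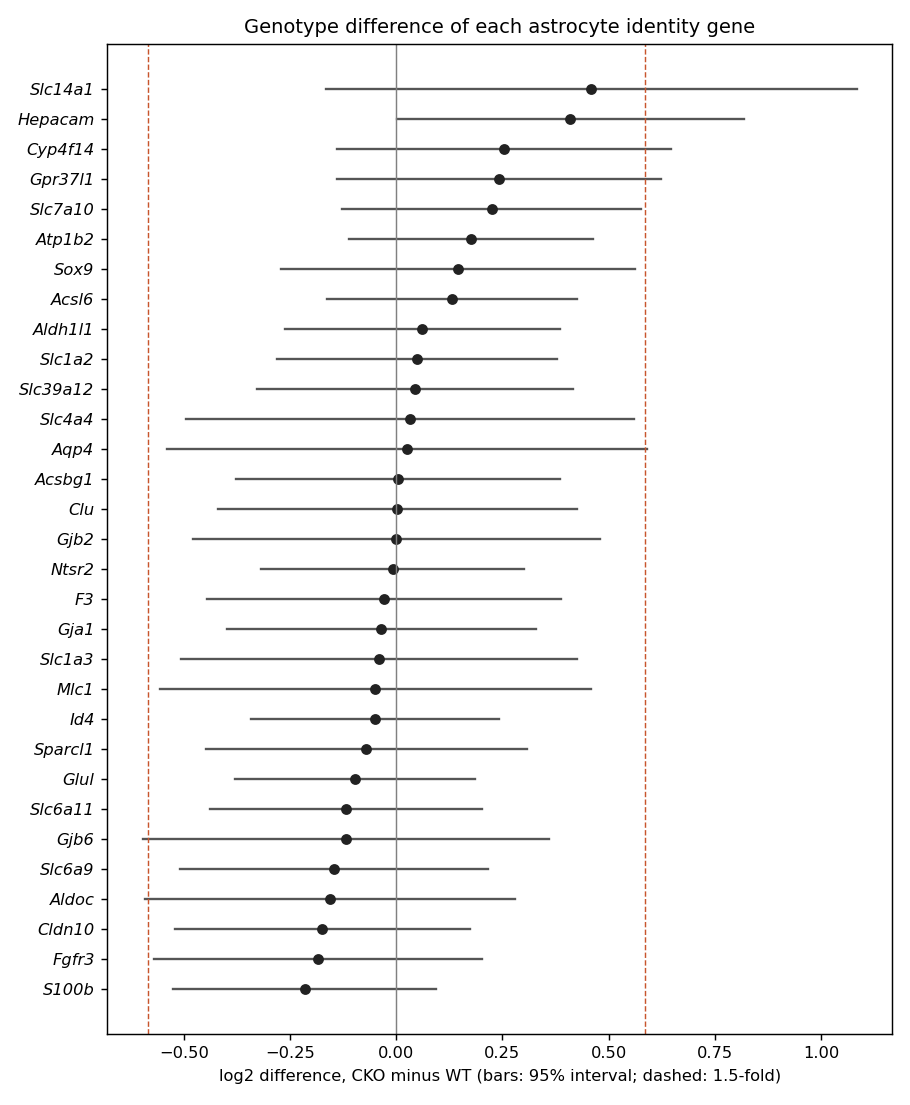
Difference between genotypes for each of the 31 tested astrocyte identity genes. The x axis gives the log2 difference, CKO minus WT, as points with 95% intervals from limma (3 pools per genotype), and dashed lines mark 1.5-fold either way. Intervals of all members but Hepacam include 0, and 24 of 31 lie within the dashed lines.

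Promoters were read for the letters of 3 motifs, in windows of 300 bases from 250 before to 50 after each start (RefSeq, GRCm38.p6). The table held 37 windows of 26 members. A CTCF core (the letters CCA, AG and GGC, with 2 free bases in each gap), searched on both strands, was in 2 of 37 member windows, those of Gpr37l1 and Cldn10, and in 2.43% of all 32851 windows. The SOX letters AACAAT were in 0 of 37 and in 10.7% of all windows, and the palindromic NFI motif was in 0 of 37 and 0.0365%. A match is a run of letters, and binding was not measured. Shown are the match in Gpr37l1 with 9 bases on either side (chr1:135167657-135167686, minus strand), the 250 bases before a start of Cldn10 (chr14:118854700-118854949, plus strand, match read on the opposite strand), and for comparison the 250 bases before the start of Hepacam (chr9:37367356-37367605, plus strand), the member with the smallest p, which held none of these motifs. Capitals mark the CTCF core.
Gpr37l1: gctcagtgtCCAGCAGAGGGCcctggctag
Cldn10: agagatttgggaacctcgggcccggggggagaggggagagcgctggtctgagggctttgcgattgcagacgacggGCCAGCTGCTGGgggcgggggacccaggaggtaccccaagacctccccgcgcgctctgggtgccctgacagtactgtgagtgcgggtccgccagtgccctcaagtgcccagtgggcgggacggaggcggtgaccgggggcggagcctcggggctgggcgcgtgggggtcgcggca
Hepacam: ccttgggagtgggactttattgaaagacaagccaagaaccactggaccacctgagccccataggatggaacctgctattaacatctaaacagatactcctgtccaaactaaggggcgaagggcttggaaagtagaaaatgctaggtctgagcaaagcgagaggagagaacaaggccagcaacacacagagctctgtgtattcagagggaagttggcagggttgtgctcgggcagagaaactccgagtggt

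The first group was the 9 channels, pumps, junction proteins and their partners, of which 5 were higher and 4 lower in CKO, with a median of 0.000062. Hepacam encodes GlialCAM, an adhesion protein that places MLC1 and a chloride channel at astrocyte junctions, and is the gene whose upstream bases are printed above. Its signal was -2.24, -1.88 and -2.21 in WT pools 1 to 3 and -1.83, -1.60 and -1.67 in CKO pools 1 to 3. Every CKO pool was above every WT pool, and the highest WT pool and the lowest CKO pool lay close together. The difference was 0.41 (SE 0.18, 95% interval 0.0012 to 0.82), or 1.33-fold, with a limma adjusted p of 0.913. Slide 1 carried pool 2 and the first readings of pool 1, and slide 2 carried pool 3 and the repeat readings. Within slide 1 the Hepacam difference was 0.33, and within slide 2 it was 0.49. Hepacam was the only member at an unadjusted p under 0.05, so 1 of 31 against 5.47% of all genes. With the block there were 2, Hepacam and Slc14a1, against 1530 of all 18336 genes.

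Atp1b2, the beta subunit of the glial sodium and potassium pump, read 2.97, 3.02 and 3.27 in WT pools 1 to 3 and 3.19, 3.33 and 3.26 in CKO pools 1 to 3. WT pool 3 lay among the CKO pools, so the genotypes overlapped. The difference was 0.18 (SE 0.13). Cldn10, which encodes a claudin of cell junctions, read 1.77, 1.28 and 1.54 in WT and 1.46, 1.37 and 1.23 in CKO. The genotypes overlapped, and the highest value was that of WT pool 1. The difference was -0.17 (SE 0.15).

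The connexins, which form the gap junctions of the astrocyte network, gave small differences. Gjb2 (connexin 26) had the difference nearest to 0 of all members, 0.000062 (SE 0.21). It read 0.47, 0.53 and 0.32 in WT pools 1 to 3 and 0.80, 0.55 and -0.03 in CKO pools 1 to 3. The mean hides a spread among CKO pools that ran past the WT pools on both sides. Gja1 (connexin 43), read by a probe printed on 10 spots, differed by -0.03 (SE 0.16), and Gjb6 (connexin 30) by -0.12 (SE 0.21). Aqp4, the water channel of the endfeet, differed by 0.03 (SE 0.25). Slc4a4, a sodium bicarbonate cotransporter that regulates pH, differed by 0.03 (SE 0.23). Mlc1, the junction protein that GlialCAM places, differed by -0.05 (SE 0.22) in a fit in which CKO pool 3 had no value, since its spot was marked as an outlier. With the pool number as a block the sign for Mlc1 was the opposite, 0.05.

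The 6 genes that clear transmitters and handle amino acids had 2 members higher and 4 lower in CKO, with a median of -0.07. Slc7a10 (Asc-1), an exchanger of small neutral amino acids such as serine, had the largest difference among them. It read 0.97, 1.25 and 1.18 in WT pools 1 to 3 and 1.43, 1.55 and 1.10 in CKO pools 1 to 3. CKO pools 1 and 2 were above all WT pools, while CKO pool 3 lay within them. The difference was 0.22 (SE 0.15). The main glutamate transporters were near 0: Slc1a2 (GLT-1) differed by 0.05 (SE 0.14) and Slc1a3 (GLAST) by -0.04 (SE 0.20). Glul, the enzyme that turns glutamate into glutamine, differed by -0.10 (SE 0.12), the smallest error of any member. The GABA transporter Slc6a11 (GAT-3) differed by -0.12 (SE 0.14), and the glycine transporter Slc6a9 (GlyT1) by -0.15 (SE 0.16).

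Slc14a1, a urea transporter, had the largest difference of all members and the largest error. It read -1.11, -1.58 and -1.87 in WT pools 1 to 3 and -1.15, -0.58 and -1.46 in CKO pools 1 to 3. CKO pool 2 stood alone at the top, and the other CKO pools lay among the WT pools. The difference was 0.46 (SE 0.27, 95% interval -0.17 to 1.08). Between same-numbered pools it was -0.03, 1.00 and 0.41, and it was 0.57 within slide 1 and 0.10 within slide 2. The other transporter, the zinc carrier Slc39a12, differed by 0.04 (SE 0.16).

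Of the 5 metabolic enzymes 4 were higher and 1 was lower in CKO, with a median of 0.06. Cyp4f14, a cytochrome P450 that oxidises leukotrienes and fatty acids, read -1.53, -1.32 and -1.55 in WT pools 1 to 3 and -1.16, -1.03 and -1.44 in CKO pools 1 to 3. CKO pool 3 lay within the WT range, and the other CKO pools lay above it. The difference was 0.25 (SE 0.17), and it was 0.50 within slide 1 and 0.06 within slide 2. Acsl6, which activates long fatty acids such as docosahexaenoic acid, read 1.00, 0.77 and 0.75 in WT and 0.95, 1.08 and 0.88 in CKO. The genotypes overlapped through WT pool 1, and the difference was 0.13 (SE 0.13). Acsbg1, another acyl-CoA synthetase, read 3.39, 2.82 and 2.86 in WT and 3.10, 2.98 and 3.00 in CKO. The CKO pools lay close together inside the WT range, and the difference was 0.0038 (SE 0.17). Aldh1l1, a folate enzyme widely used as a pan-astrocyte marker, differed by 0.06 (SE 0.14). Aldoc, the brain aldolase of glycolysis, differed by -0.16 (SE 0.19).

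Among the receptors 1 was higher and 2 were lower. Gpr37l1, a receptor of astrocytes coupled to G proteins, read 2.74, 2.86 and 2.28 in WT pools 1 to 3 and 2.95, 2.93 and 2.74 in CKO pools 1 to 3. WT pool 3 was the low value, and CKO pool 3 lay at the level of WT pool 1, so the genotypes overlapped. The difference was 0.24 (SE 0.17). Fgfr3, a receptor of fibroblast growth factors, read 2.06, 2.15 and 2.54 in WT and 2.01, 1.88 and 2.30 in CKO. In both genotypes pool 3 was the highest, and the difference was -0.18 (SE 0.17). Ntsr2, the low-affinity neurotensin receptor, read 4.36, 4.02 and 4.12 in WT and 4.23, 4.21 and 4.04 in CKO. The genotypes overlapped, and the difference was -0.0076 (SE 0.14).

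S100b, a calcium-binding protein that is a classic astrocyte marker, was the lowest of all members in CKO relative to WT. It read 3.08, 3.08 and 3.38 in WT pools 1 to 3 and 3.01, 3.07 and 2.82 in CKO pools 1 to 3. All CKO pools were below all WT pools, but by a margin of about 0.01 between CKO pool 2 and WT pool 2. The difference was -0.22 (SE 0.14, 95% interval -0.53 to 0.09), so that WT was 1.16-fold CKO, with a limma adjusted p of 0.999. Within slide 1 the difference was -0.07, and within slide 2 it was -0.29. Clu, the secreted chaperone clusterin, read 6.68, 6.25 and 6.35 in WT and 6.70, 6.37 and 6.21 in CKO. The order of the pools was mixed, and the difference was 0.0025 (SE 0.19). Sparcl1 (hevin), a secreted protein that promotes synapse formation, differed by -0.07 (SE 0.17), and F3, the cell-surface tissue factor, by -0.03 (SE 0.18).

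The transcription regulators measured were Sox9, a factor that specifies astrocytes, and Id4, an inhibitor of DNA binding. Sox9 differed by 0.15 (SE 0.18) and Id4 by -0.05 (SE 0.13).

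**Figure D2:**
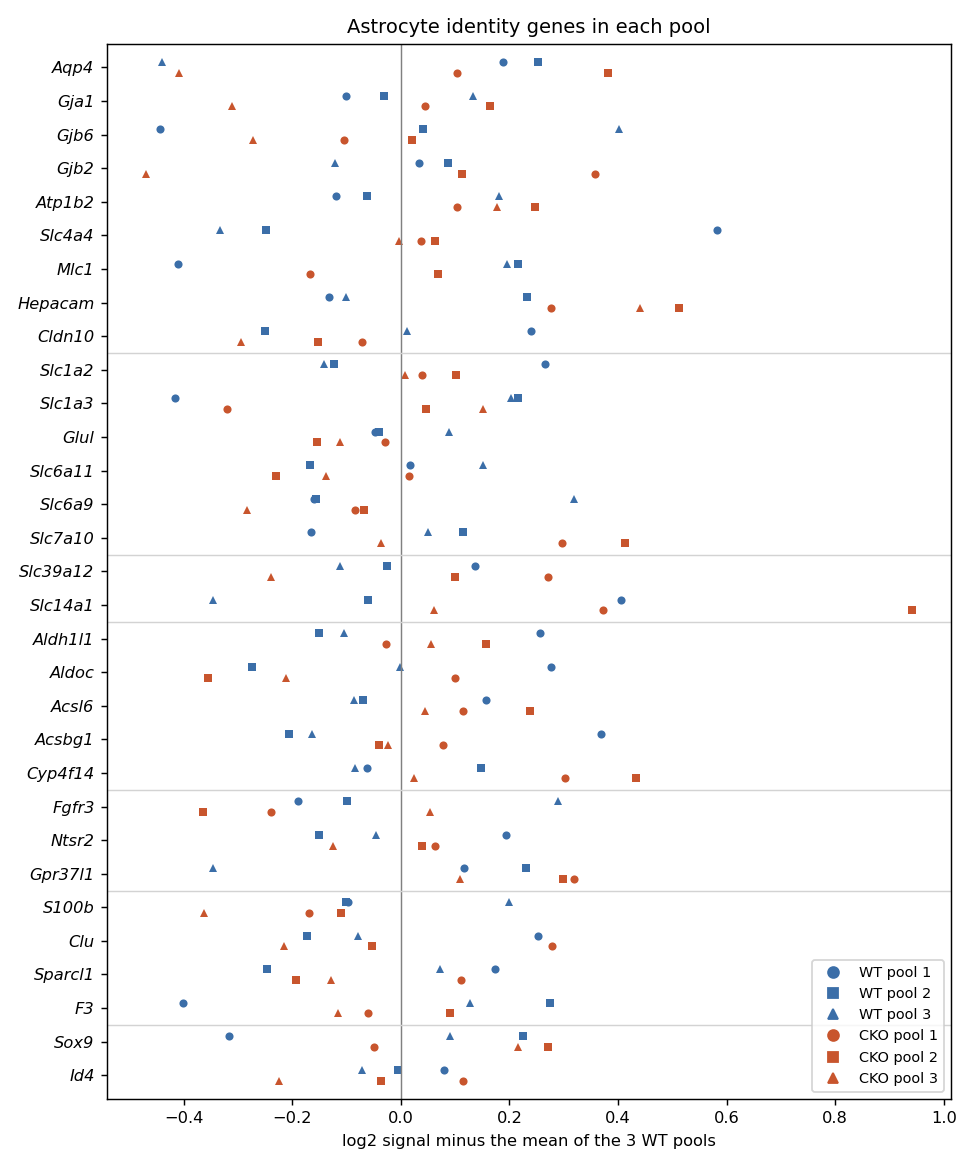
Signal of each of the 31 tested astrocyte identity genes in each pool, as log2 signal minus the mean of the 3 WT pools. Blue marks are WT and red marks CKO, the shape gives the pool number, and grey lines part the functional groups. The genotypes mix in 28 of the 30 members with values in all pools, with CKO above WT for Hepacam and below it for S100b.

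Pools of the genotypes did not overlap for 2 of the 30 members with values in all 6 pools, Hepacam and S100b, against 11.3% of all genes. Since same-numbered pools shared their sex and age makeup, each was also set against its partner. The difference had the same sign in all 3 pairs for 8 of 30 members, against 28.1% of all genes. Hepacam, Cyp4f14, Gpr37l1 and Sox9 were higher in CKO in every pair, and Slc6a11, Aldoc, Fgfr3 and S100b were lower in every pair. The other 22 members had mixed signs.

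CKO pool 3 stood below the other CKO pools for many members. Relative to the WT mean of each gene, the members averaged 0.07 in CKO pool 1, 0.09 in CKO pool 2 and -0.09 in CKO pool 3. CKO pool 3 was the lowest CKO pool for 19 of 30 members (63.3%, against 35.9% of all genes) and the highest for 2. CKO pool 2 was the highest CKO pool for 16 of 30 (53.3%, against 32.5% of all genes). In both genotypes pool 3 was the male and the youngest pool, and its array was on slide 2. These cannot be told apart, and their part in the values was not tested. WT pools showed no such step, with averages of 0.02, -0.02 and -0.0023. The range over the 3 WT pools was wider than that over the 3 CKO pools for 21 of 30 members (70.0%, against 81.2% of all genes), with median ranges of 0.41 and 0.27.

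Repeat arrays of the same RNA give the spread of the measurement, here together with any difference between slides. The first readings of pool 1 were on slide 1, and the repeats, with lower signal, were on slide 2. Both arrays of WT pool 1 differed by a median of 0.40 over the members without regard to sign (0.51 over all genes), and both arrays of CKO pool 1 by 0.15 (0.22 over all genes). The gap between the WT arrays was larger than the difference between genotypes for 24 of 31 members, and the gap between the CKO arrays was larger for 18 of 31. Slc1a3 had the largest gap, with 3.36 on the first array of WT pool 1 and 2.35 on the second. For Sox9 these arrays gave -0.33 and -1.25, and for Gjb6 1.27 and 0.39. Spots of 1 probe on 1 array agreed far more closely. The 10 spots of the Gja1 probe had an SD of 0.03 to 0.23 on each array (median 0.06), and those of the Sox9 probe 0.04 to 0.10 (median 0.07).

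**Figure D3:**
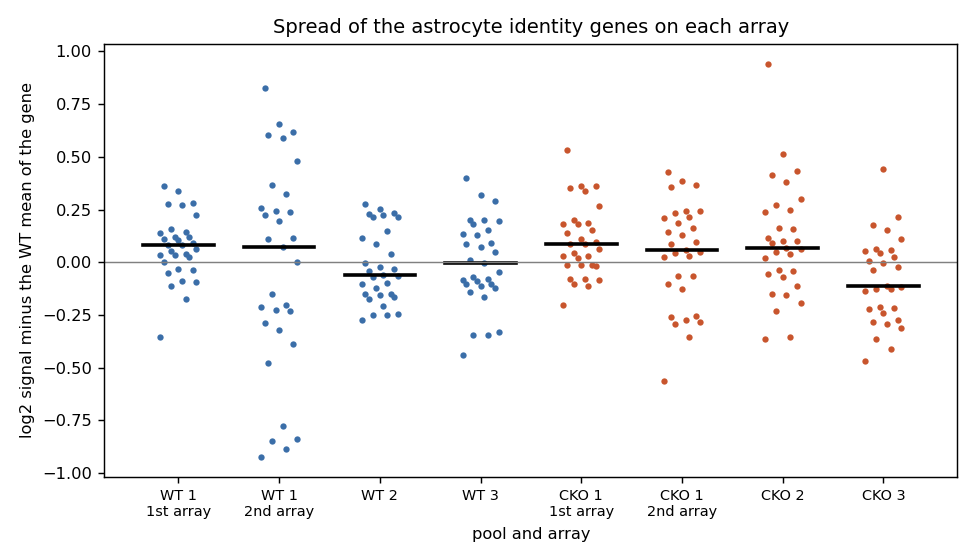
Spread of the astrocyte identity genes on each of the 8 arrays, as log2 signal minus the WT mean of the gene. Each point is 1 member, and the black bar is the median of the array. The second array of WT pool 1 spreads from -0.92 to 0.83, wider than its mate (-0.35 to 0.36), and CKO pool 3 has the lowest median, -0.11.

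Genes read by several probes gave a check within the arrays. Of the 11 members with more than 1 tested probe, the probes had the same sign in 6 and different signs in 5 (Acsbg1, Aqp4, F3, Slc1a2 and Slc39a12). The widest split was in Slc1a2, whose 3 probes gave 0.05, -0.04 and -0.49. The 95% interval of the last included 0. For Aqp4 the probes gave 0.03 and -0.24. For Slc4a4 and Slc6a9 the tested probes share 48 and 51 of 60 bases and are not independent readings. None of the 43 tested probes passed the threshold in limma, with a smallest adjusted p of 0.942.

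**Figure D4:**
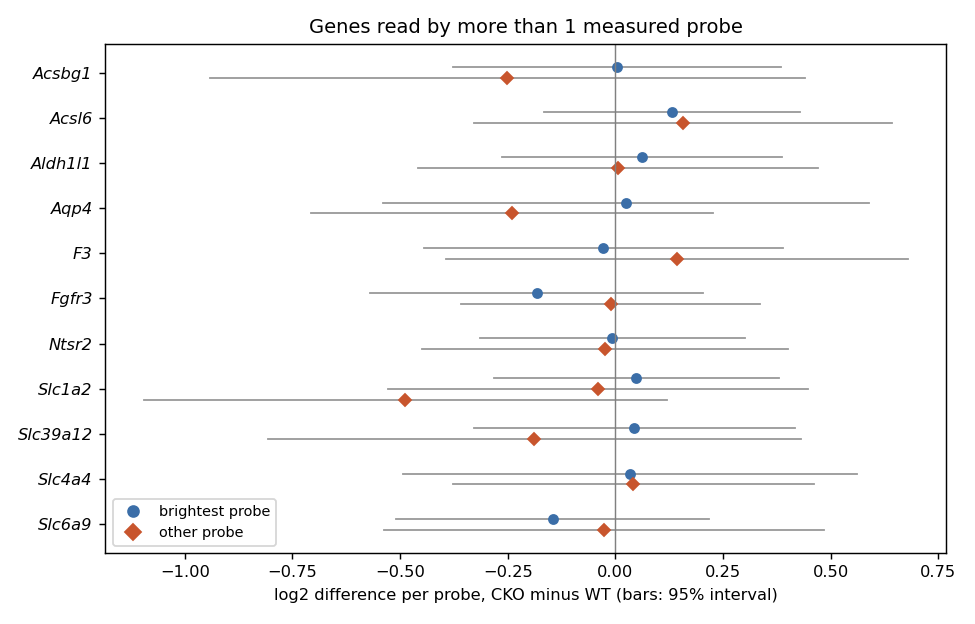
Differences between genotypes for each tested probe of the 11 members read by more than 1. The x axis gives the log2 difference, CKO minus WT, with 95% intervals, the blue circle is the brightest probe, and red diamonds are the others. Every interval includes 0, and the third Slc1a2 probe lies furthest left at -0.49.

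A fit that weights the pools by how well they follow the others changed the count. With limma array weights 7 of 31 members passed the threshold, against 17.3% of all genes. Hepacam (0.48), Gpr37l1 (0.52) and Slc14a1 (0.75) were higher, and Fgfr3 (-0.42), Gjb6 (-0.46), S100b (-0.38) and Slc6a9 (-0.41) were lower. That fit gave WT pool 3 a weight of 4.31 and the other WT pools 0.16 and 0.44, so that the WT level rested mostly on 1 pool of males.

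Genes that work beside the members in astrocytes were read from a list of 80 partner genes, of which 76 were tested. None passed the threshold with or without the block. The mean was higher in CKO for 40 and lower for 36, with a median of 0.02. Partners of potassium, water and endfoot function had 9 of 11 higher (median 0.19), led by the calcium-permeable channel Trpv4, which differed by 0.70 (SE 0.30). Trpv4 read -1.31, -0.38 and -0.06 in WT and 0.18, 0.25 and -0.08 in CKO, with the lowest value in WT pool 1. The choroid plexus markers described below were also lowest in that pool, and a link was not tested. Kcnj16, an inward rectifier potassium channel, was lower in CKO, with -0.34 (SE 0.18). Of the secreted and matrix partners 6 of 8 were lower (median -0.20). Mfge8, a bridging protein of phagocytosis, differed by -0.40 (SE 0.15), the proteoglycan Bcan by -0.29 (SE 0.14), and the membrane protein Ttyh1 by -0.25 (SE 0.13).

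The transcription partner Hes5, a target of Notch signalling, had the smallest p of all partners. It read 1.04, 1.37 and 1.65 in WT pools 1 to 3 and 0.54, 0.73 and 0.91 in CKO pools 1 to 3. All CKO pools were below all WT pools, with a difference of -0.63 (SE 0.18). The limma adjusted p was 0.573, and 0.0895 with the block. Pros1, a ligand of phagocytic receptors, differed by 0.52 (SE 0.17), and Cpt1a, which brings fatty acids into mitochondria, by 0.31 (SE 0.13), and for both all CKO pools were above all WT pools. Of the 76 tested partners, 2 had all CKO pools above and 3 had all below (Hes5, Mfge8 and Ttyh1). Among all genes, pools did not overlap in either direction for 11.3%. Transmitter partners (3 of 9 higher, median -0.05), glucose and lactate partners (4 of 10, -0.01), lipid partners (6 of 11, 0.04), the regulators (6 of 10, 0.04), receptors (6 of 10, 0.05) and phagocytosis genes (4 of 7, 0.06) had medians near 0.

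Genes of the reactive state are not members, and were set beside them on the same arrays. Of 21 tested reactive astrocyte genes 19 were higher in CKO and 2 lower, with a median of 0.48. None passed the threshold without the block, against 0.0273% of all genes. With the block 5 passed, against 0.562% of all genes, all upward: Gfap, Serpina3n, Timp1, Socs3 and Cd14. Gfap, the intermediate filament of astrocytes, read 1.95, 2.37 and 2.16 in WT pools 1 to 3 and 2.56, 3.19 and 2.76 in CKO pools 1 to 3. All CKO pools were above all WT pools. That held for 9 of the 21 tested reactive genes, with 1 the other way, against 11.3% of all genes in either direction. The difference was 0.68 (SE 0.19), with a limma adjusted p of 0.506, and 0.0464 with the block. Timp1, an inhibitor of metalloproteinases, differed by 1.85 (SE 0.39, adjusted p 0.253, and 0.0271 with the block in limma), and Osmr, the oncostatin M receptor, by 0.78 (SE 0.15). The reactive and identity genes were compared side by side, and the difference between the lists was not tested.

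**Figure D5:**
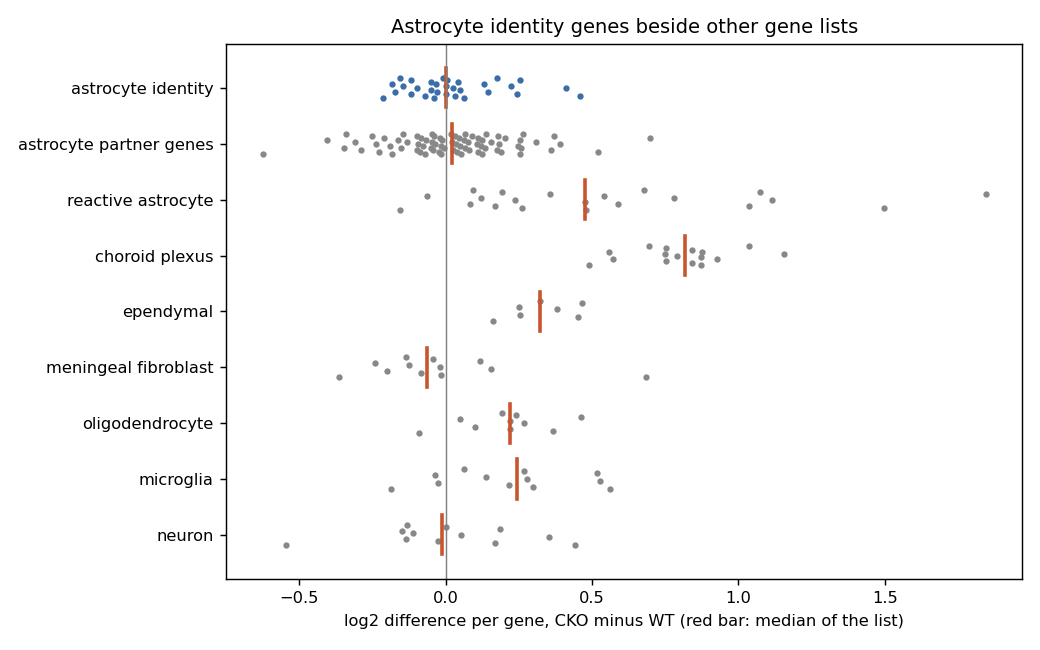
Difference between genotypes per gene for the 31 astrocyte identity genes (blue) and for other lists (grey). The x axis gives the log2 difference, CKO minus WT, each point is 1 gene, and the red bar is the median of the list. The identity genes centre on 0 (median 0.000062), the partner genes on 0.02, the reactive genes on 0.48 and the choroid plexus markers on 0.82.

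Markers of other cell types that dissected hippocampus can hold were uneven between pools. All 16 choroid plexus markers were higher in CKO (median 0.82). Relative to the gene's WT mean these markers averaged -1.15 in WT pool 1 and between 0.45 and 0.99 in each other pool. The 7 ependymal markers were all higher (median 0.32) and averaged -0.64 in WT pool 1, against 0.14 to 0.43 in the others. Microglia markers (9 of 12 higher, median 0.24) averaged 0.52 in CKO pool 2 and -0.06 in CKO pool 3. Meningeal fibroblast markers averaged 0.18, 0.06 and -0.31 in CKO pools 1 to 3. Oligodendrocyte markers were higher for 9 of 10 (median 0.22), endothelial and mural markers for 9 of 12 (0.06), meningeal fibroblast markers for 3 of 12 (-0.06), neuron markers for 6 of 12 (-0.01) and progenitor and newborn neuron markers for 4 of 6 (0.13). None of these genes passed the threshold with or without the block. Their part in the values of the astrocyte genes was not tested. Leaving out WT pool 1 left 0 of 31 members past the threshold, against 15 genes upward and 6 downward of all 18336. The members' median was 0.02 in that fit. With so few genes called, this count cannot show what part the markers had.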

How the data were processed

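Labelled RNA was hybridised in 1 colour (Cy5) to Agilent arrays with 43020 non-control spots, 8 arrays on 2 slides. Agilent Feature Extraction, version 11.5 per the submitters' processing notes, gave the deposited intensity of each spot, which is background-subtracted within each array per the file headers and not scaled between arrays. The authors' series value table, also of intensity, served as an alternative, whose scaling is not given. Deposited flags marked outlier and dim spots.

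Members and lists were chosen with earlier results of these data known. Outlier spots were dropped, log2 signals were centred on each array's 75th percentile, and spots of a probe and arrays of a pool were averaged. A probe was kept if it was well above background on all arrays of 1 or both genotypes, and the brightest probe stood for each of 18336 genes. Genotypes were compared with limma 3.58.1 in R 4.3.3 (lmFit, eBayes with trend, two-sided), with Benjamini-Hochberg adjustment over all genes. An exact permutation test of 3 against 3 cannot give a p under 0.10.

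Same-numbered pools share sex and age makeup per the labels, and their deviations had r = 0.55, 0.33 and 0.13 across genes for pools 1 to 3. Differently numbered pools gave r from -0.48 to 0.12, so for pool 3 the match was hardly closer than between unmatched pools. The block is therefore given beside counts and is not the main fit. Every tested member is given; pool values are in full for the 10 with the smallest unadjusted p and the 4 with the smallest difference, and up to 3 genes per other list were taken by unadjusted p, while Gfap and the other reactive genes that passed with the block were added after their values were seen. Alternatives covered scaling, background correction, filter, probe choice, slides, arrays, weights, trend, the block and each pool left out.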

Additional observations from a re-analysis of the deposited data

How the results depend on the processing

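Of 24 alternatives, 23 gave 0 astrocyte identity genes past the threshold of limma, and array weights gave 7. The pool number as a block gave 0, with a median difference of 0.0025, and changed no member's call. Under it 2 members had an unadjusted p under 0.05, against 1 without it. Of all 18336 genes, 1530 did with the block and 1003 without it. Leaving out each pool in turn gave 0 members each time. The members' median ran from -0.05 under median scaling, which moved the median of all genes to -0.06, to 0.05 without CKO pool 3. The SD between pools of the members' mean was 0.07. The sign was kept in all 24 alternatives by 13 members, Hepacam, Slc14a1 and S100b among them. It differed in at least 1 for the 18 others. In the main comparison the 95% intervals of all members but Hepacam included 0. With array weights the intervals of the 7 members that passed excluded 0, Gjb6 and Slc6a9 of those 18 among them. Further intervals excluded 0 in that fit, since 6 members upward and 5 downward had an unadjusted p under 0.05. Of all 18336 genes, 6459 did. Slc4a4, also of those 18, was among them (0.33, limma p 0.012), and gave 0.32 (limma p 0.014) without WT pool 1. Over all genes, 5 passed in the main comparison and 103 with the block. There were 61 upward and 47 downward without the second array of WT pool 1, 67 and 57 with first arrays only, 15 and 6 without WT pool 1, 3163 in all with array weights, and 0 within slide 2 (258 there at an unadjusted p under 0.05). The count was 2 without CKO pool 1, and 0 without WT pool 3 (734 at an unadjusted p under 0.05) and without CKO pool 3 (627). With the block it was 44 upward and 27 downward for first arrays only, 47 and 22 with quantile scaling, and 40 and 18 without the second array of WT pool 1. Values from 3 pools per genotype limit what can be seen: the smallest half-width of an interval was 0.28 on the log2 scale. Fits with the block combined with quantile scaling, first arrays only or without the second array of WT pool 1 were added after seeing the data and gave 0 members each.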
